A study of Rattus norvegicus with 9 samples.

Results

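The cytoplasmic ribosomal protein genes were described in RNA sequencing of retinal microglia from control and diabetic rats. They were taken by name: rows of the gene count table beginning with Rpl or Rps and a digit, plus Rpsa, Rplp0, Rplp1 and Rplp2, without the Rps6k kinases. The name matched 98 of the 28343 rows, and 52 of these had a total of 90 or more counts over the 9 libraries and are the members. Of the members, 16 encode proteins of the small subunit, 28 proteins of the large subunit, and 8 are copies, meaning paralogs, retrogenes or pseudogenes that carry the name of another ribosomal protein. The rule set no value other than this minimum. Just inside it lay Rpl27a with 93 counts and Rpl6 with 98, and just outside lay Rps7 with 89 and Rpl31 with 88.

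All animals were Dark Agouti rats, an inbred laboratory strain. The 4 diabetic libraries (numbered 1, 2, 4 and 5) came from rats given streptozotocin, a toxin of pancreatic beta cells, at 55 mg/kg when 8 to 10 weeks old. The 5 control libraries (numbered 1, 3, 4, 5 and 6) came from rats given citrate buffer, the carrier. Both groups were fasted for 12 hours before the injection, retinas were taken 4 weeks after it, and diabetic rats with blood glucose above 30 mmol/l received 2 units of insulin. Cells from papain-digested retinas were sorted on CD11b, a surface integrin that microglia share with monocytes, neutrophils and border macrophages, so the gate itself does not separate these cells. RNA was preamplified with a SmartSeq kit, which copies polyadenylated transcripts, and made into Nextera XT libraries. The labels do not say whether each library is 1 animal or a pool, so p-values below measure the spread between libraries. In such bulk samples, fewer cells of a type and less RNA per cell cannot be told apart.

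The cytoplasmic ribosome is built from ribosomal RNA and a set of proteins, most of them needed in equal number. The small subunit holds the decoding site and the path of the messenger RNA, and the large subunit holds the site of peptide bond formation, the tunnel through which the nascent chain leaves, and a flexible stalk that recruits the elongation factors. In vertebrates most messages of ribosomal proteins start with a C followed by a run of pyrimidines, the 5′ terminal oligopyrimidine tract, through which mTORC1 controls their translation, and the spliced genes have left many intronless pseudogenes across the genome.

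The total count per library was between 9156591 and 11332823 in the control group. In the diabetic group it was between 6228756 and 9629829, with the lowest in diabetic 4. No 2 libraries agreed within counting noise, since the smallest chi-square per degree of freedom over the 36 pairs was 11.7. Of 16 microglia markers 15 were in the table, and they took 3.01% to 4.13% of counts in control and 3.66% to 3.96% in diabetic libraries. Siglech was at 0 in every library. Markers of blood and border myeloid cells took 0.031% to 0.0711% of counts in control and 0.0641% to 0.144% in diabetic libraries, and 8 of the 9 tested had an unadjusted p under 0.05 toward the diabetic group, while Ccr2, Lcn2 and Mpo were at 0. Inner retinal neuron markers took 0.00552% to 0.0106% and 0.00808% to 0.0248%, with none of the 20 at 0 throughout. The mean share of both lists was higher in diabetic libraries, but their groups overlapped and both were highest in diabetic 1. The share of the ribosomal protein genes, given below, was highest in diabetic 4. The part of both lists in the results below was not tested.

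The start sites carry the feature that these genes are best known for. The 30 bases around the start site (15 before it and 15 from it) are therefore shown for some members. Sequences are from RefSeq promoters on the rat build GRCr8, on the gene's strand, 5′ to 3′. Capitals mark the tract, searched for as a C within 2 bases of the annotated start followed by at least 4 bases that are C or T, on the gene's strand alone. Rps23, Rps15, Rps27, Rpl37a and Rps2 had adjusted p-values (edgeR) under 0.1 in the comparison of groups, and Rplp1 had 0.118. Rplp0, Rps3a and Rpl4 are shown as members whose levels differed little. The choice is not complete, as Rpl41, Rpl35 and Rpl11 had adjusted p-values (edgeR) of 0.101, 0.102 and 0.105. Of these not shown, Rpl41 and Rpl11 had no tract by this search and Rpl35 had one. The windows shown thus give no link between tract and difference.
Rps23: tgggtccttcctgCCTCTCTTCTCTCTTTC
Rps15: cgctgacaccgcttCCTTTTCCCagcagcc
Rps27: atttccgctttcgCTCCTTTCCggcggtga
Rplp1: gcaggcgcatgtgatCCTTTCCTCagctgc
Rpl37a: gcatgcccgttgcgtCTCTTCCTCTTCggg
Rps2: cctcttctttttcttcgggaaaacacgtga
Rplp0: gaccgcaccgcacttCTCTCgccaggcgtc
Rps3a: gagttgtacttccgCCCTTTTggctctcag
Rpl4: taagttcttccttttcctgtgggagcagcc
The windows lie at chr2:23814502-23814531 (plus strand), chr7:10068101-10068130 (minus strand), chr2:177964592-177964621 (minus strand), chr8:71290858-71290887 (minus strand), chr9:81748076-81748105 (plus strand), chr10:14251833-14251862 (plus strand), chr12:46718376-46718405 (minus strand), chr2:173827028-173827057 (minus strand) and chr8:73566462-73566491 (plus strand), in the same order. The tract of Rps23 ran on past the end of its window. A tract was found at 21 of the 39 members that the promoter table holds (53.8%), against 1773 of 21851 protein-coding promoters of the same length (8.11%) and 6 of 65 promoters of mitochondrial ribosomal proteins (9.23%). Rps2 and Rpl4 had no tract by this search. Their windows hold pyrimidine runs that begin further upstream of the annotated start than the search allows.

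Counts, here not divided by transcript length, were spread very unevenly over genes whose proteins are mostly needed in equal number. Rpl3 alone held 17.1% of all counts on members, Rplp0 held 9.60%, and the 6 highest members together held 51.9%. In contrast, 46 rows of the rule stayed under the minimum and 6 of them had no count in any library. Among the core genes, Rpl7a and Rpl38 had 0 counts, Rps19, Rpl8, Rpl35a and Rpl37 had 1 each, the stalk gene Rplp2 had 2, Rps6, the phosphorylated protein used as a readout of mTORC1, had 7, Rps27a, made as a fusion with ubiquitin, had 11, and Rpl39 had 17. A count of 0 over the summed 84533787 counts allows up to 0.0355 CPM (counts scaled to a common library size), for counting error only. Rpl10 and Rpl22 had no row of that name and were not analysed here.

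The low rows include genes that every cell needs, so a low count there gives no level of the gene. RefSeq lists 785 pseudogenes named after rows of the rule, and such copies can share reads with the parent gene. How the authors' counting treated reads with several matches is not given in the sources used here. Across the 68 subunit rows, the number of named pseudogenes and the total count had a Spearman correlation of 0.012, which is a description across genes. The median total nonetheless fell from class to class. It was 800 in the 3 rows with 0 to 2 named pseudogenes and 549 in the 24 rows with 3 to 9. It was 320 in the 24 rows with 10 to 14 and 271 in the 17 rows with 15 to 34. Rps2 has the most, 34, and Rpl9 has 27, so their values and those of the copies are uncertain. The same doubt holds for other members with named pseudogenes. Among these are Rpsa with 25, Rpl7 with 23, Rps15 and Rpl23a with 17 each, Rpl37a with 13 and Rps23 with 10.

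**Figure D1:**
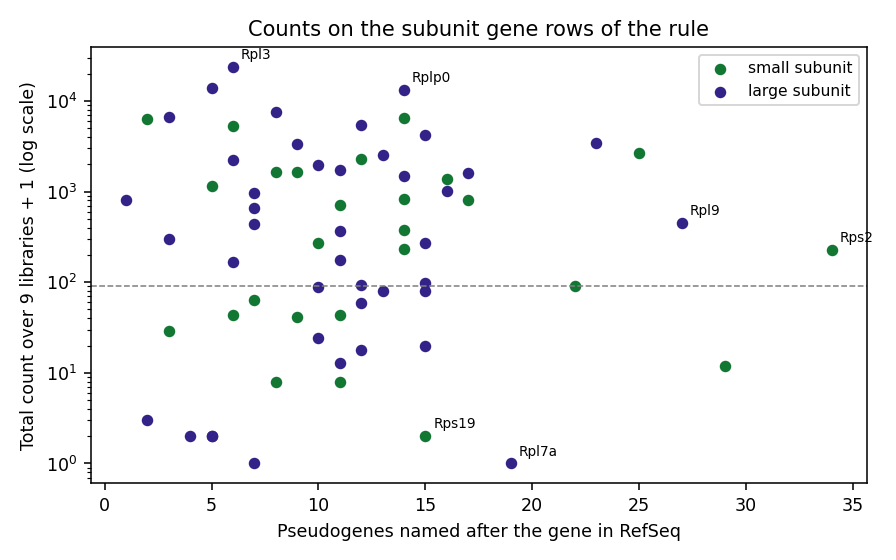
Total count over the 9 libraries plus 1 (log scale) against the number of RefSeq pseudogenes named after the gene, 1 point for each of the 68 subunit rows, with the minimum of 90 as a dashed line. Totals run from 0 for Rpl7a to 23508 for Rpl3, with a Spearman correlation of 0.012 with the number of pseudogenes.

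Members took a larger share of all raw counts in every diabetic library than in any control library. Their share was 0.144%, 0.151%, 0.152%, 0.135% and 0.133% in controls 1, 3, 4, 5 and 6, and 0.203%, 0.168%, 0.219% and 0.177% in diabetic 1, 2, 4 and 5. The means were 0.143% ± 0.00875 (SD, n = 5) and 0.192% ± 0.0234 (SD, n = 4), a difference of 0.0485 percentage points and a ratio of 1.34. Diabetic 4, the shallowest library, was highest and diabetic 2 was nearest to the controls. These shares leave out the scaling factors used in the tests below. Those were 0.927 in control 4, 0.839 in control 6 and 1.07 in diabetic 2. Dividing by them raises the shares of controls 4 and 6 and lowers that of diabetic 2. The separation of the groups by share therefore depends on the scaling. Without Rpl3 the ratio was 1.38, and without the copies it was 1.34. These shares are a description with no test, as the set of genes was proposed with results of these data known.

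**Figure D2:**
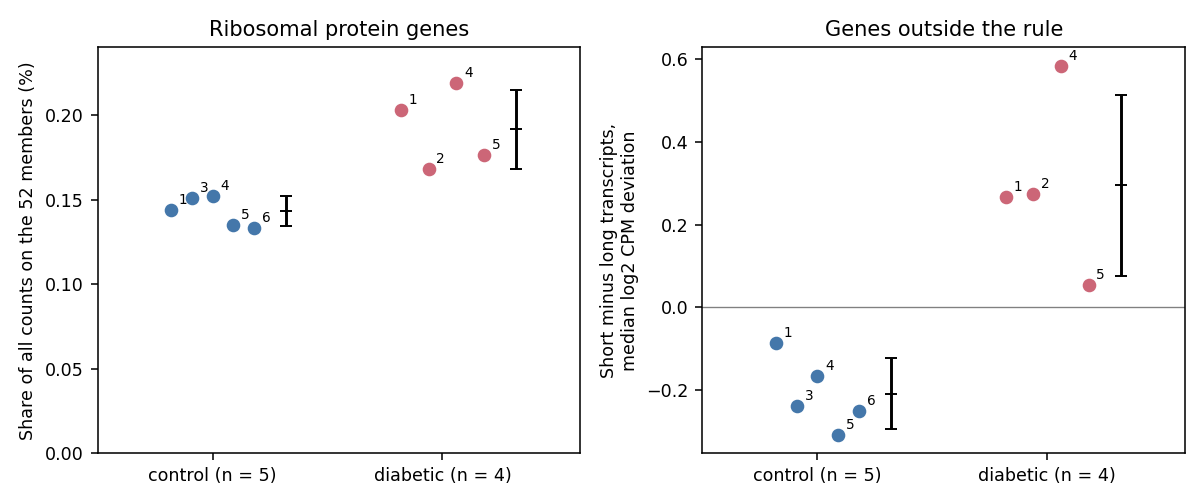
Left, share of each library's counts on the 52 members, 0.133% to 0.152% in the 5 control and 0.168% to 0.219% in the 4 diabetic libraries; right, for genes outside the rule, median log2 deviation of short transcripts (up to 750 bases) minus that of long ones (over 3000 bases). Points are libraries with their numbers, bars give mean ± SD, and groups overlap in neither panel. The shares are of raw counts, without scaling factors.

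The comparison of diabetic with control libraries asked which genes differ after 4 weeks of hyperglycaemia. Fold changes are log2 of diabetic over control from edgeR's quasi-likelihood test on 11748 genes, with Benjamini-Hochberg adjustment over all of them. No member passed an adjusted p of 0.05, where 0.0681% of all genes did in either direction and 0.0426% were higher. At an adjusted p under 0.1, 6 of the 52 were higher in diabetic libraries (1.05% of all genes were): Rps15, Rpl23a, Rps23, Rpl37a, Rps2 and Rps27. At an unadjusted p under 0.05, 27 of 52 were higher (8.94% of all genes) and 0 lower (10% of all genes). The fold change was above 0 for 47 of 52 (50.3% of all genes), with a median of 0.37 against 0.0018 over all genes. In 14 members all diabetic libraries lay above all controls (4.27% of all genes) and in 0 all lay below (4.16%). With no scaling factors the 14 became 25 (6.91% of all genes). The count of 27 rested in part on 1 library: without diabetic 4 it was 15 (5.9% of all genes) and the median was 0.28, while without diabetic 2 it was 32 (7.92%). The count past the adjusted threshold depended on the test: DESeq2's Wald test called 13 members higher (1.54% of all genes), edgeR's likelihood-ratio test 10 (1.43%), and edgeR with a score of cell isolation genes as covariate 14 (3.6%). It was 1, Rps15, both with no scaling factors (0.238%) and with no filter on low counts (0.163%).

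**Figure D3:**
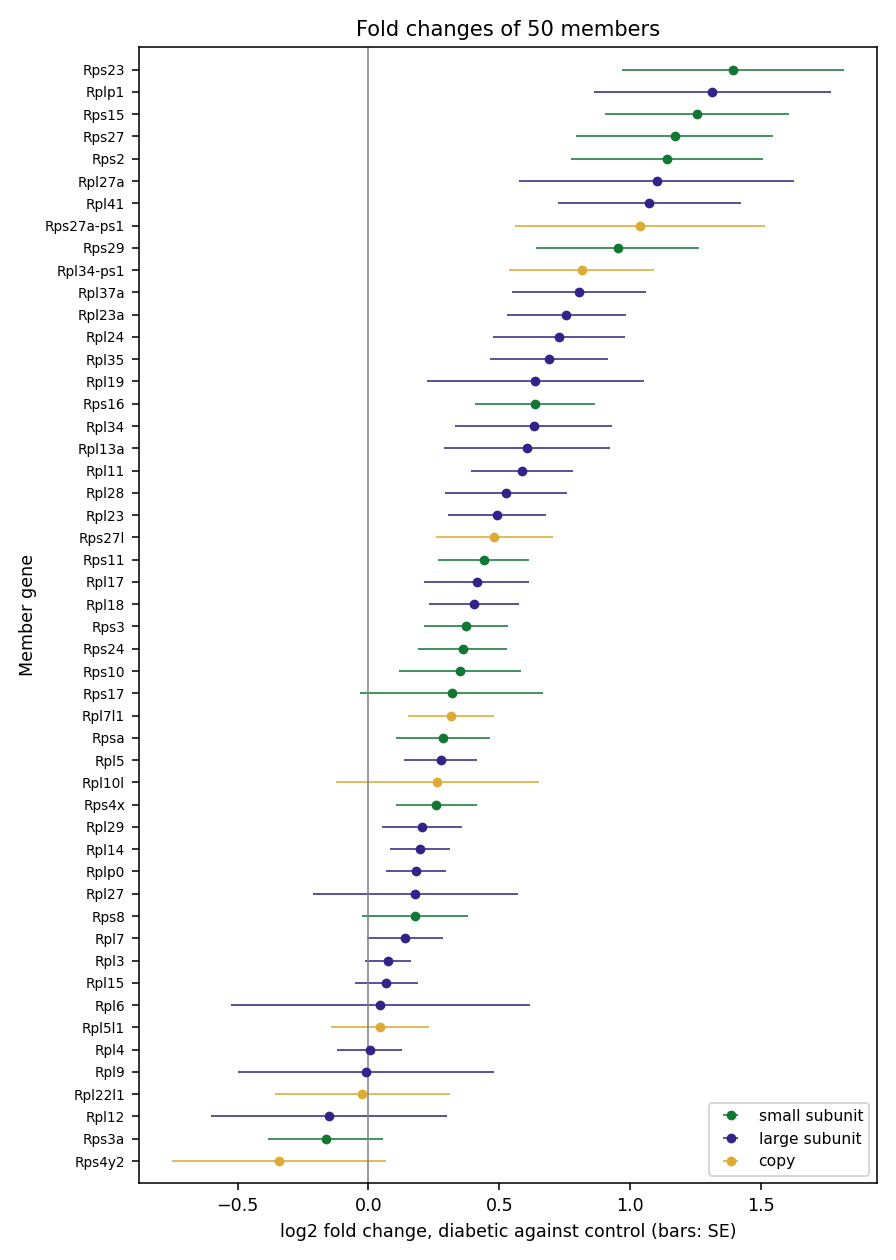
log2 fold change of 50 of the 52 members, diabetic against control, coloured by small subunit, large subunit and copy. Bars are standard errors worked back from the edgeR p. Values run from -0.34 for Rps4y2 to 1.39 for Rps23, and 45 of the 50 lie above 0.

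Of the 16 small subunit members, 15 had a fold change above 0, 9 had an unadjusted p under 0.05 and 6 did not overlap between groups, with a median of 0.37. Over all genes these shares were 50.3%, 8.94% and 4.27%. Values below are normalised CPM, given for controls 1, 3, 4, 5 and 6 and then for diabetic 1, 2, 4 and 5. Rps15, a protein of the subunit's head close to the decoding site, measured 4.62, 6.16, 5.91, 7.38 and 6.96 in control and 13.6, 10.9, 24.4 and 10.8 in diabetic libraries. All diabetic libraries lay above all controls, and diabetic 4 was highest. The log2 difference was 1.26 (SE 0.35) and the adjusted p (edgeR) was 0.0755, the lowest of the members.

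Rps23, which sits at the decoding centre, measured 1.89, 1.82, 2.47, 2.03 and 1.55 in control and 4.15, 3.88, 8.92 and 3.9 in diabetic libraries. The 3 diabetic libraries other than number 4 were within 3.88 to 4.15, above the highest control of 2.47. It had the largest fold change of the members, 1.39 (SE 0.42), with an adjusted p (edgeR) of 0.0909. Rps27, a zinc finger protein of the small subunit, measured 7.55, 5.64, 13.4, 8.99 and 10.7 in control and 16.4, 16.8, 34.4 and 16 in diabetic libraries. Its groups did not overlap, with diabetic 4 far above the rest, and the log2 difference was 1.17 (SE 0.38) with an adjusted p (edgeR) of 0.0991. Rps2, at the entry of the messenger RNA channel, measured 2.08, 1.3, 1.93, 1.39 and 2.19 in control and 3.55, 3.67, 4.94 and 3.6 in diabetic libraries. Again no library of one group reached the other, with a log2 difference of 1.14 (SE 0.37) and an adjusted p (edgeR) of 0.0991, on a total of only 224 counts. Rps29, named after its values were seen, was the shortest member with a length, and measured 12.3, 8.67, 13.8, 11.3 and 14.4 in control and 22.7, 17.9, 37.6 and 15.9 in diabetic libraries, again without overlap.

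Several longer small subunit genes had smaller differences, although Rps2 is itself among the longer ones. Rps3, a protein of the messenger RNA entry that also has a role in DNA repair, measured 51.7, 61.6, 58.4, 47.9 and 59.8 in control and 80.0, 55.2, 88.5 and 65.9 in diabetic libraries. Diabetic 2 lay among the controls and the other 3 above them, and the log2 difference was 0.37 (SE 0.16). Rpsa, also known as a laminin receptor, measured 25.9, 28.1, 32.3, 26 and 35.6 in control and 36.7, 26.9, 47.9 and 32.9 in diabetic libraries, with a log2 difference of 0.29 (SE 0.18) and overlap. Rps4x, encoded on the X chromosome, measured 23.1, 26, 28.5, 21.5 and 27.6 in control and 28.8, 26.6, 38.7 and 27.5 in diabetic libraries, where diabetic 1 and 4 lay above all controls and the log2 difference was 0.26 (SE 0.16).

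Rps10, which is ubiquitinated when ribosomes collide, measured 3.87, 4.16, 3.98, 3.96 and 3.87 in control and 5.82, 4.39, 5.89 and 4.2 in diabetic libraries. The controls were tightly grouped and every diabetic library lay above them, but the log2 difference of 0.35 (SE 0.23) had an unadjusted p of 0.131 and an adjusted p (edgeR) of 0.381. Rps3a was the single small subunit member with a fold change below 0. It measured 7.74, 11.4, 10.5, 6.52 and 6.7 in control and 8.19, 7.55, 6.85 and 8.1 in diabetic libraries, all diabetic values lying inside the control range, with a log2 difference of -0.16 (SE 0.22).

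Of the 28 large subunit members, 26 had a fold change above 0, 15 had an unadjusted p under 0.05 and 7 did not overlap, with a median of 0.41, beside 50.3%, 8.94% and 4.27% over all genes. Rpl3, which reaches toward the peptidyl transferase centre, measured 254, 285, 288, 253 and 279 in control and 303, 264, 298 and 279 in diabetic libraries. Diabetic 1 and 4 lay above all controls and the other diabetic libraries among them, and the log2 difference was 0.07 (SE 0.09). Rpl4, which lines the exit tunnel and was named after its values were seen, measured 85.2, 104, 92.2, 71.1 and 90.2 in control and 104, 80.9, 89 and 81.9 in diabetic libraries. The groups were mixed, and the log2 difference was 0.0049 (SE 0.12). Rpl3 at 1220 and Rpl4 at 1343 bases, by the length stand-in explained below, are the longest members.

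Rpl23a, the docking site of nascent chain factors at the tunnel exit, measured 12.7, 15.3, 15.6, 13.5 and 16.4 in control and 24.4, 17.6, 33.1 and 24.5 in diabetic libraries. Every diabetic library lay above every control, and the log2 difference was 0.76 (SE 0.23) with an adjusted p (edgeR) of 0.0895. Rpl37a, a small zinc finger protein, measured 20.9, 20.5, 31, 18.1 and 24.7 in control and 39.9, 35.9, 56.4 and 29.4 in diabetic libraries. Control 4 reached above diabetic 5, so the groups overlapped, and the log2 difference was 0.81 (SE 0.26) with an adjusted p (edgeR) of 0.0991. Rpl37a was also the member closest to the mean of the others over the 9 libraries, with a Pearson r of 0.99, a description over libraries of both groups.

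Rpl5 and Rpl11 bind 5S ribosomal RNA together, and when ribosome assembly is disturbed the same particle binds Mdm2. Rpl5 measured 23.3, 20.3, 23.2, 19.1 and 21.9 in control and 25.5, 24.3, 30.7 and 24.2 in diabetic libraries, and Rpl11 measured 34.7, 31.1, 36.3, 28.5 and 35.2 and 48.3, 43.3, 68.6 and 39.7. In both genes all diabetic libraries lay above all controls. The log2 differences were 0.28 (SE 0.14) and 0.59 (SE 0.20), with adjusted p-values (edgeR) of 0.257 and 0.105. Rpl13a, which also acts in a complex that silences inflammatory messages, measured 4.72, 4.16, 3.01, 2.35 and 3.87 in control and 4.54, 5.2, 8.28 and 4.3 in diabetic libraries. Control 1 lay above diabetic 1 and 5, and the log2 difference was 0.61 (SE 0.32).

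Rpl12, at the base of the stalk, and Rpl9 had the only fold changes below 0 in the large subunit. Rpl12 measured 3.87, 2.43, 1.4, 0.856 and 1.8 in control and 2.37, 1.63, 1.11 and 2.3 in diabetic libraries, with control 1 highest and control 5 lowest. Rpl9 measured 8.87, 7.54, 2.79, 3.96 and 2.45 in control and 3.95, 9.59, 4.78 and 2.2 in diabetic libraries, with diabetic 2 highest and diabetic 5 lowest. The log2 differences were -0.15 (SE 0.45) and -0.0099 (SE 0.49), and both changed sign under other settings. For Rpl12 it was 0.20 without control 1 and for Rpl9 it was 0.28 without the same library.

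The stalk has 3 proteins, of which Rplp0 anchors pairs of Rplp1 and Rplp2. Rplp0 measured 131, 137, 162, 139 and 170.1 in control and 176, 144, 168 and 181 in diabetic libraries. Controls 4 and 6 lay among the diabetic values, and the log2 difference was 0.18 (SE 0.12). Rplp1 measured 1.6, 1.47, 3.12, 2.57 and 2.71 in control and 4.34, 3.98, 10.5 and 4.2 in diabetic libraries. All diabetic libraries lay above all controls, with diabetic 4 far above the rest, and the log2 difference was 1.31 (SE 0.45) with an adjusted p (edgeR) of 0.118. Rplp2, at 2 counts in all, could not be compared.

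Of the 8 copies, 6 had a fold change above 0, 3 had an unadjusted p under 0.05 and 1 did not overlap, with a median of 0.29, beside 50.3%, 8.94% and 4.27% over all genes. Rps27l, a paralog of Rps27, measured 12.7, 15.5, 17.6, 13.8 and 13 in control and 23.7, 18.2, 26.4 and 13.2 in diabetic libraries. Diabetic 5 lay among the controls and the other 3 above them, with a log2 difference of 0.48 (SE 0.22). Rpl7l1, a paralog of Rpl7 of the nucleolus, measured 11.6, 13.3, 12, 11.7 and 12.5 in control and 16.2, 12.3, 17.8 and 14.6 in diabetic libraries, with overlap through diabetic 2 and a log2 difference of 0.32 (SE 0.16). Rpl22l1, the paralog of Rpl22, measured 2.08, 2.34, 4.83, 2.25 and 3.99 in control and 3.06, 3.57, 2.55 and 2.9 in diabetic libraries. The diabetic values lay inside the control range, and the log2 difference was -0.02 (SE 0.33), with a sign that turned under 8 of the settings tried.

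Rpl34-ps1, annotated as a pseudogene of Rpl34, measured 6.7, 5.38, 8.06, 5.46 and 10.2 in control and 13.7, 11, 15.3 and 10.3 in diabetic libraries, where the lowest diabetic and the highest control values nearly touched. Its log2 difference was 0.82 (SE 0.28) with an adjusted p (edgeR) of 0.112. Rps27a-ps1, a pseudogene of Rps27a, measured 0.944, 2.17, 1.93, 0.856 and 1.16 in control and 3.26, 2.35, 4.78 and 1.5 in diabetic libraries, with overlap. Its reads and those of Rps27a, which had 11 counts, cannot be told apart if the sequences are near identical. Rpl10l, a retrogene of Rpl10 known from testis, measured 2.83, 6.16, 3.98, 1.93 and 6.44 in control and 3.46, 7.04, 6.37 and 3.7 in diabetic libraries, and Rpl5l1 measured 17.6, 21.9, 18, 13.6 and 13.9 and 21.2, 16.1, 19.4 and 13.7. The groups overlapped in both. Rps4y2, a copy of the Rps4 family, had the lowest fold change of all members, -0.34 (SE 0.41), from 13.1, 7.02, 10.5, 8.77 and 16.6 in control and 3.55, 15.5, 6.05 and 10.0 in diabetic libraries. Diabetic 1 and 4 lay below every control, while diabetic 2 and 5 lay among the controls.

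Levels could be set side by side between genes only per length, for the 9 members with a reference transcript in the deposited assemblies. On the scale of normalised CPM per kilobase, Rps4x stood at 26.1 in the control and 31.3 in the diabetic mean, Rpl5l1 at 19.1 and 19.8, and Rpl34-ps1 at 16.8 and 29.5. Rps4y2 stood at 12 and 9.4, Rpl9 at 8.08 and 8.09, Rps10 at 7.96 and 10.2, and Rpl10l at 6.65 and 8.01. Rps27a-ps1 was lowest at 2.59 and 5.45. These levels depend on how reads shared between copies were counted, and the part this has in their order was not tested.

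**Figure D4:**
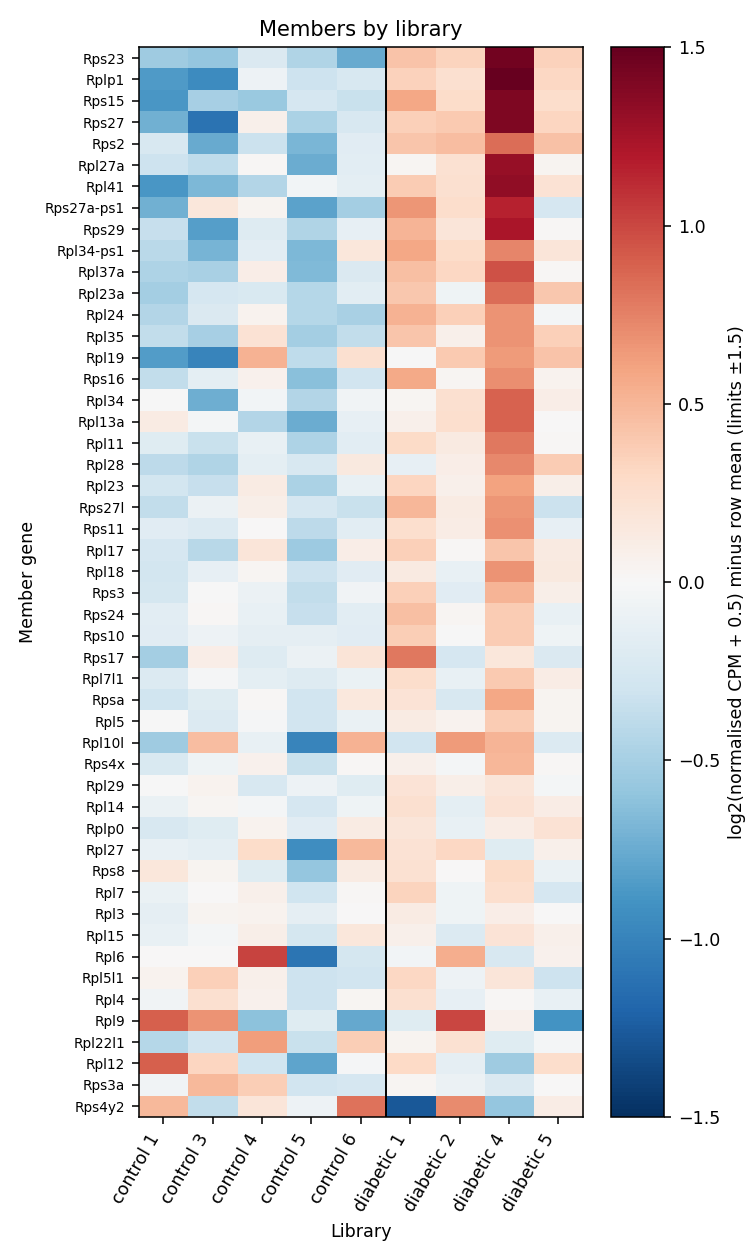
Deviation of log2 normalised CPM (plus 0.5) from each member's mean, 50 of the 52 members in rows by fold change and the 9 libraries in columns, on a colour scale limited to ±1.5. Diabetic 4 holds the highest values in most of the upper rows, and the lower rows show no common difference between groups.

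The members varied together over libraries. The correlation of a member with the mean of the others had a median of 0.83 and a range of -0.42 to 0.99, and 31 of 52 members were above 0.8. The first principal component held 62.1% of the members' variance and 37.7% of the variance within groups. Median pairwise r was 0.62, and 0.45 for deviations from the group means. Control 5 had 0 members above their own mean over the 9 libraries, control 1 had 8, control 3 had 15, control 6 had 18 and control 4 had 28. The diabetic libraries 1, 2, 4 and 5 had 47, 33, 46 and 37. These correlations are descriptions without a test, since the libraries share groups and depth. The genes outside the rule closest to the mean of the members over the 9 libraries were LOC501110 with r = 0.99, Tbca, a tubulin folding cofactor, with 0.98, and Ndufa5, a subunit of respiratory complex I, with 0.97. The most opposite was Thnsl1, with -0.97.

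Short members had larger fold changes than long ones, and the same order by length was seen over the genes outside the rule that had a length. Transcript length came from the reference transcripts of the deposited assemblies for 9 members. For 39 more a stand-in was used, the lower quartile of the span of the pseudogenes named after the gene, which are mostly copies of the spliced message. Over 55 genes with both, the stand-in and the reference length had a Spearman correlation of 0.69 and a median ratio of 0.980. Over the 48 members with a length, log2 fold change and length had a Spearman correlation of -0.65, and over 4636 genes outside the rule it was -0.38. Both are descriptions across genes, which are not independent replicates.

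Among the 5 members of up to 400 bases, 4 were higher in diabetic libraries at an unadjusted p under 0.05, and their median fold change was 0.81, against 33.3% and a median of 0.52 in 78 other genes of that length. Between 400 and 600 bases 17 of 21 members were higher, with a median of 0.64, against 41.7% and 0.45 in 103 other genes. Between 600 and 800 bases 1 of 11 was higher, with a median of 0.18, against 40.8% and 0.37 in 211 other genes. Between 800 and 1000 bases 3 of 9 were higher, with a median of 0.26, against 22.0% and 0.17 in 232 other genes. The median of other genes was -0.14 above 3000 bases. The 2 members between 1000 and 1500 bases had a median of 0.040, against 0.086 in 897 other genes. By median, members thus lay above other genes of their length up to 600 and between 800 and 1000 bases. They lay below them between 600 and 800 and between 1000 and 1500 bases. These differences were not tested.

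**Figure D5:**
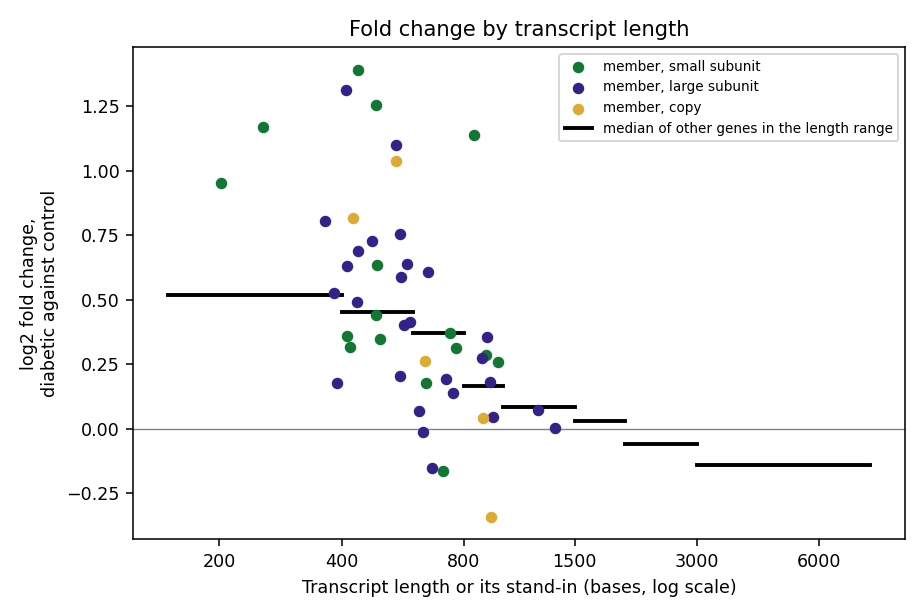
log2 fold change of the 48 members with a length against transcript length or its stand-in in bases (log scale), with black bars for the median of genes outside the rule in each length range. The medians of other genes run from 0.52 up to 400 bases to -0.14 above 3000 bases, and members fall with length too.

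The same trend was present in single libraries. For genes outside the rule, the median log2 deviation of 331 short transcripts minus that of 914 long ones was -0.085, -0.24, -0.16, -0.31 and -0.25 in controls 1, 3, 4, 5 and 6, and 0.27, 0.27, 0.58 and 0.054 in diabetic 1, 2, 4 and 5. The groups did not overlap, and diabetic 4 stood highest as it did for the members. Their mean log2 normalised CPM was 3.50, 3.53, 3.74, 3.31 and 3.67 in controls and 4.00, 3.89, 4.30 and 3.81 in diabetic libraries. Because the length trend separates the groups themselves, a difference in ribosomal protein genes and a difference in the recovery of short transcripts cannot be told apart from these libraries.

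When the length trend of each library was taken out by an offset, an alternative chosen after the data were seen, 7 of 48 members were higher at an unadjusted p under 0.05 (8.48% of the genes tested there) and 1 lower, and the median was 0.065. The 7 were Rps15, Rps2, Rps23, Rps27, Rplp1, Rpl23a and Rpl37a, with log2 differences from 0.31 for Rpl37a to 0.92 for Rps23. None passed the adjusted threshold, the lowest adjusted p (edgeR) being 0.112 for Rps15. The 1 lower was Rpl15, at -0.25. With the short-transcript value of each library as a covariate, also chosen after the data were seen, 0 members were higher or lower at an unadjusted p under 0.05 (1.34% of all genes were higher), 0 passed the adjusted threshold, and the median was -0.025.

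Members with a start-site tract had a median fold change of 0.49, with 12 of 21 (57.1%) higher at an unadjusted p under 0.05. Those without had 0.34, with 9 of 18 (50.0%). Over all genes 8.94% were higher at that p. The median length of the first was 498 bases. For the second it was 866.5 bases over the 14 that have a length, since the 4 members with none (Rpl22l1, Rpl41, Rpl7l1 and Rps27l) are all among those without a tract. Of the windows printed above, Rps23, Rps15, Rps27, Rplp1 and Rpl37a carry a tract and so do Rplp0 and Rps3a, whose fold changes were 0.18 and -0.16, while Rps2 carries none at its start at a fold change of 1.14.

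Members with high counts showed the direction as well. All 29 with a total of 900 or more had a fold change above 0 (50.3% of all genes), with a median of 0.36. Of these, 17 had an unadjusted p under 0.05 (8.94% of all genes were higher at that p). In the 23 below that total the fold change was above 0 for 18, and the median was 0.61. In the authors' deposited table, which tests the same libraries and so adds no independent evidence, 13 of the 52 members were called higher at an adjusted p under 0.05 (1.92% of its genes) and 0 lower (0.182%). The 13 in the authors' deposited table were Rps15, Rps27, Rpl37a, Rps29, Rpl23a, Rpl41, Rps23, Rpl35, Rpl11, Rpl34-ps1, Rplp1, Rps2 and Rps16. The lowest adjusted p in the authors' deposited table was 6.58e-04 for Rps15, at a log2 fold change of 1.37. The median over members in the authors' deposited table was 0.48, and over all its genes 0.12.

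None of the genes in the other lists of the translation machinery passed the adjusted threshold of edgeR's test. Their counts at an unadjusted p under 0.05 are to be read beside 8.94% higher and 10% lower over all genes. Of 68 mitochondrial ribosomal proteins, which build the separate ribosome of mitochondria, 24 were higher (35.3%) and 1 lower, and the median was 0.22. In 9 of them the diabetic libraries lay fully above the controls, where 4.27% of all genes did. Mrpl33 was at 2.33 ± 0.399 (SD, n = 5) CPM in control and 5.83 ± 2.65 (SD, n = 4) in diabetic libraries, and Mrps24 at 17.4 ± 1.71 and 24.3 ± 1.25. The count of 24 was 14 without diabetic 4 (5.9% of all genes) and also 14 without control 6 (7.64%). It was 1 with the short-transcript covariate (1.34% of all genes). With the length offset it was 4 of the 49 that could be tested (8.48% of the genes tested there). Of 5 genes for ribosomal proteins outside the naming rule and for nascent chain factors, 2 were higher, with a median of 0.44, and 0 were with the short-transcript covariate. Among these Nacad, which carries the domain of the nascent chain complex, was at 0.66 ± 0.437 CPM in control and 1.57 ± 0.715 in diabetic libraries, with overlap. It rested on 1 to 26 counts per library. For this list the count of 2 was 1 with RLE factors or with DESeq2, and 5 with no scaling factors (13.8% of all genes).

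Translation initiation factors lay on the other side of 0, with 1 of 33 higher and 11 lower at an unadjusted p under 0.05 (8.94% and 10% of all genes) and a median of -0.22. The 11 lower became 7 without control 6, diabetic 1 or diabetic 2, and also with no scaling factors. It was 1 of 33 with the short-transcript covariate, and 1 of the 8 that could be tested with the length offset. The median over the 33 stayed at -0.22 with the covariate, and over those 8 it was -0.062 with the offset. The share of all genes lower is not given for any of these settings. The falls in the count are therefore not read as particular to these factors. Eif1ax, which helps select the start codon, was at 130.0 ± 15.6 CPM in control and 97.1 ± 4.94 in diabetic libraries, and Eif3c, a subunit of the eIF3 scaffold, at 362 ± 36 and 282 ± 10.1. Both had all diabetic libraries below all controls, with adjusted p-values (edgeR) of 0.0991 and 0.10. Of 10 elongation factors 0 were higher or lower, with a median of -0.039. Of 50 ribosome assembly factors 1 was higher and 3 lower, with a median of -0.0092. Of 13 genes of RNA polymerase I, which transcribes ribosomal RNA, 2 were higher and 1 lower, with a median of 0.11.

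Of 28 genes of mTORC1 and its control of ribosomal protein translation, 4 were higher (14.3%) and 2 lower, with a median of 0.021, beside 8.94% and 10% of all genes. They include Lamtor4, of the lysosomal scaffold that anchors mTORC1, at 44.8 ± 2.73 CPM in control and 59.4 ± 10.3 in diabetic libraries. Eif4ebp1, an inhibitor of cap-dependent initiation that mTORC1 phosphorylates, was at 20.6 ± 4.28 and 31.2 ± 6.05. Of 19 genes of ribosome quality control and stress sensing, 1 was higher and 3 lower, with a median of -0.16. Among them Abce1, which splits ribosomes for recycling, was at 125 ± 6.37 and 99.6 ± 11.2 CPM. With the short-transcript covariate, the lists of elongation factors, assembly factors, RNA polymerase I, mTORC1 and quality control had 1, 0, 0, 1 and 0 genes higher and 0 lower in each. Over all genes 1.34% were higher with that covariate.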

How the data were processed

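RNA-seq libraries of CD11b-sorted retinal cells were compared between 5 control and 4 diabetic samples. Per the submitters' processing notes, reads were handled with bcl2fastq 2.18.0.12, TopHat2 2.0.14, StringTie 1.2.4 and edgeR, with no version given for the last, on the rat build Rnor_6.0. Which gene counter and strand setting were used, and how reads with several matches were treated, is not given in the sources used here. The authors deposited raw counts per gene, a table of log2 fold changes with p-values and adjusted p-values, and transcript assemblies, whose deposited positions gave reference transcript lengths. All codes in the labels name the same flow cell and lane, so the labels hold no sequencing batch.

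Genes were kept by filterByExpr (minimum count 10, minimum total 15), scaled by TMM and tested with edgeR 4.0.16 (R 4.3.3) by the robust quasi-likelihood test over all 11748 genes, with Benjamini-Hochberg adjustment and a threshold of 0.05. Normalised CPM are counts divided by the TMM-scaled library size, with factors from 0.839 to 1.07. The SE of a fold change was worked back from the unadjusted quasi-likelihood p through a normal quantile, so it is approximate. Log2 CPM for correlations used a prior count of 2. Alternatives used limma 3.58.1, DESeq2 1.42.0, other scalings, filters and designs, and the fit was tested on simulated data. Members and gene lists were chosen with earlier results of these data known, so no p is given for a list or score. Single members are those of roles stated in the design, the 5 with the smallest p in each direction, the highest and lowest per length, and the 3 with the largest spread; from other lists, the 2 with the smallest p. Further members are said to be named after their values were seen. Marker lists of photoreceptor, Müller glia, vascular, erythroid and cell isolation genes were also measured. Photoreceptor markers took 0.0274% to 0.144% of counts in control and 0.0431% to 0.218% in diabetic libraries, Müller glia and astrocyte markers 1.08% to 1.78% and 1.30% to 1.42%, vascular markers 0.0410% to 0.0726% and 0.0412% to 0.0619%, cell isolation genes 0.623% to 4.63% and 1.64% to 2.85%, and erythroid markers up to 0.000846% and up to 0.00119%.

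RefSeq tables gave pseudogene names, matched by symbol for 51 of 52 members, and promoter sequence on GRCr8, which is not the build of the counts and was used for no position in the files. Same-numbered libraries (1, 4 and 5) deviated from their group means with correlations of 0.20, -0.11 and 0.016, so the numbers were not taken to pair the libraries. No protein sequences and no genome were used here. Some genes entered all counts and fits but are not reported here by name or drawn in the plots by gene.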

Additional observations from a re-analysis of the deposited data

Results flagged for a closer look

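In 4 of the 58 groups of libraries looked at, 1 library lay further from the rest than expected of 4 or 5 values by Dixon's criterion, and chance alone gives about 1 in 20. In each case it was diabetic 4, the library with the fewest counts, at the high end. Rplp1 was at 10.5 normalised CPM there and at 3.98 to 4.34 in the other diabetic libraries. Rps27 was at 34.4 against 16.0 to 16.8, Rps23 at 8.92 against 3.88 to 4.15, and Rps2 at 4.94 against 3.55 to 3.67. In all 4 genes the other 3 diabetic libraries also lay above every control.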

How the results depend on the processing

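The direction of the members' median held under each scaling, filter, test, block, covariate and left-out library other than the 2 length alternatives below, and no member was called lower under any. The 28 named members gave 560 values under these settings, of which 510 kept direction and call, 27 passed the adjusted threshold, 0 lost it and 23 turned sign, and 24 of the 28 never turned. The number of members called higher at an adjusted p under 0.05 was 0 in edgeR's quasi-likelihood test, 1 with no scaling factors, 1 with no filter on low counts, 13 with DESeq2's Wald test (1.54% of all genes), 10 with edgeR's likelihood-ratio test (1.43%) and 14 with the cell isolation score as covariate (3.6%). Genes called in the lists outside the rule numbered 12 with DESeq2, 2 with the likelihood-ratio test and 27 with the cell isolation covariate. When 1 library was left out they numbered 0 to 2, the 2 without control 1. No share over all genes in both directions is given for these settings, so these counts are not read as a result about the lists. Members higher at an unadjusted p under 0.05 numbered 27 (8.94% of all genes). With 1 library left out they numbered between 15 (without diabetic 4, 5.9% of all genes) and 32 (without diabetic 2, 7.92%). They numbered 17 of the 29 members with a total of 900 or more. Without controls 4 and 6, a choice made after seeing the data, they numbered 29 (7.21% of all genes). Leaving out 1 library gave medians of 0.28 to 0.47 for all members, 0.29 to 0.47 for the small subunit, 0.31 to 0.52 for the large subunit and 0.19 to 0.39 for the copies.

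The 2 alternatives on length, added after seeing the data, left 0 members called. With the short-transcript covariate 0 members were higher and the medians were -0.025 for all members, -0.032 for the small subunit, -0.018 for the large subunit and -0.12 for the copies. With the length offset 7 were higher and 1 lower, and the medians were 0.065, 0.078, 0.059 and -0.053. The cell isolation covariate and both length alternatives use a value measured in the same libraries. Members whose groups do not overlap numbered 25 with no scaling factors (6.91% of all genes), which also moved the median of all genes to 0.12, 17 with upper-quartile factors (5.9%) and 14 with RLE factors (4.32%). With the replicate block the initiation factors lower at an unadjusted p under 0.05 numbered 4 in place of 11. The share of all genes lower is not given for that setting.

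Under settings other than the length alternatives, the sign turned for 4 named members near 0. With the length offset further named members fell below 0: Rpl3 at -0.023, Rplp0 at -0.0064, Rps10 at -0.044 and Rpl10l at -0.053. Rpl22l1 was at 0.12 with no factors, 0.063 with upper-quartile factors, 0.095 with limma-voom, 0.0058 with the replicate block and 0.0025 with the cell isolation covariate, and between -0.14 and 0.19 with 1 library left out. Rpl12 was at 0.067 with the replicate block and between -0.35 and 0.20 with 1 library left out. Rpl9 was at 0.077 with no factors, 0.059 with upper-quartile factors, 0.19 with the cell isolation covariate and between -0.52 and 0.28 with 1 library left out. Rpl5l1 was between -0.060 and 0.15 with 1 library left out. The cause was not tested for any of these changes. With the replicate block on numbers 1, 4 and 5, 28 members were higher at an unadjusted p under 0.05 (5.91% of all genes), 0 were called, and the median was 0.49. Same-numbered libraries did not deviate together: control 1 correlated best with its own number, but control 4 with diabetic 5 at 0.30 and control 5 with diabetic 4 at 0.11.

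Depth limits the members with few counts: Rpl27a, Rpl6, Rpl27 and Rps27a-ps1 had 93, 98, 165 and 171 counts in all, and nothing can be said of the 46 rows under the minimum.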
